A study of Homo sapiens with 29 samples.

Results

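The comparison described here set 3 RNA-seq libraries of C4-2 cells treated with CC-115 against 3 libraries of the same cells treated with NU7441, neither with enzalutamide, and these are 6 of the 29 samples of the series. The libraries were taken by their labelled inhibitor, with no measured value used to choose them. C4-2 is an established human prostate cancer line derived from LNCaP, grown here in hormone-proficient medium. NU7441 inhibits the DNA-dependent protein kinase (DNA-PK), and CC-115 is described as a dual inhibitor of DNA-PK and of the target of rapamycin kinase (TOR), so both groups share loss of DNA-PK activity as the intended treatment and differ in the intended loss of TOR activity. Each inhibitor was given at 1 µM for 24 h. Groups of 3 libraries each give context: cells labelled Ctrl, whose vehicle the labels do not state, cells given 1 µM CC-223, a TOR kinase inhibitor, and both inhibitors compared here, each combined with 1 µM enzalutamide (Enza), an antiandrogen, for the same 24 h. Cells given 1 µM enzalutamide alone, or 1 µM CC-223 with 1 µM enzalutamide, for 24 h also enter the statistical fit, with 3 libraries each. Nothing in the labels says that the 3 libraries of a group came from separate cultures, so the p-values measure the spread between libraries of a group, which may be technical. That spread was estimated over all 24 C4-2 libraries in 8 groups, not only over the 6 compared.

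DNA-PK is the catalytic kinase recruited by the Ku heterodimer to broken DNA ends, where it drives non-homologous end joining. TOR is a related kinase that acts in a pair of complexes: the first promotes protein synthesis, ribosome production and lipid synthesis when amino acids and growth factors are present, and the second phosphorylates AKT. Both kinases belong to the PIKK family together with ATM, ATR, SMG1 and TRRAP.

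The libraries held 34.94 to 38.56 M counts with CC-115 and 32.74 to 39.18 M counts with NU7441. Values below are in CPM, read counts scaled to a library total of 1 M and adjusted by the trimmed mean of M-values, and a difference is the log2 ratio of CC-115 over NU7441 with its standard error (SE). A gene is called higher or lower with CC-115 where the Benjamini-Hochberg adjusted p of edgeR's quasi-likelihood test was under 0.05. Prostate luminal markers were present in all 6 libraries, with a summed level over 12 genes of 13100 to 13400 CPM with CC-115 and 7120 to 7930 CPM with NU7441. Most markers of other cell types were near 0: 5 of 6 basal, 9 of 11 neuroendocrine and 12 of 16 stromal, immune and endothelial markers were under 1 CPM in all 6 libraries, and KRT5, CHGB, INSM1, NEUROD1 and DCN had no count in any. The exception among basal markers was the integrin gene ITGA6, at 25.7 to 27 CPM with CC-115 and 52 to 56.7 CPM with NU7441 (−1.05 ± 0.08, adjusted p = 7.86e-11), which carried a basal sum of 25.8 to 27.3 CPM against 52.5 to 57.2 CPM. The neuroendocrine sum was 5.37 to 6.44 CPM against 6.22 to 7.51 CPM and the stromal, immune and endothelial sum 8.07 to 8.72 CPM against 8.56 to 9.14 CPM. One library stood somewhat apart: NU7441 replicate 2 differed from the other NU7441 libraries by a chi-square of 21.7 and 24.1 per degree of freedom, against 8.76 between those 2 and 4.01 to 11.1 among the CC-115 libraries. In it, cell cycle genes were lower than in the other NU7441 libraries, and results that move without it are given both ways.

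Of 22860 genes tested, 5596 (24.5%) were higher and 5599 (24.5%) lower with CC-115 than with NU7441. Together 49% of tested genes were called, and 2196 (9.61%) were higher and 2077 (9.09%) lower by at least 1 log2 unit, a 2-fold difference. The middle of the distribution lay at −0.01 log2 units, and the median size of a difference was 0.49. Counts within a list are read against these shares. Over all genes, 6885 were higher and 6974 lower of 23108 without Enza replicate 1 and CC-115+Enza replicate 1. When only the 6 libraries compared were fitted, 6368 were higher and 6482 lower of 20208. Counts within a list under those settings are read against these counts. The 3 libraries of the groups did not overlap for 63.4% of tested genes. In such bulk samples a change in the mix of cells and a change in RNA per cell cannot be told apart, and this includes the share of cells in each phase of the cell cycle. Each gene in a list was also given its own difference from Ctrl, and both inhibitors share those Ctrl libraries.

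**Figure D1:**
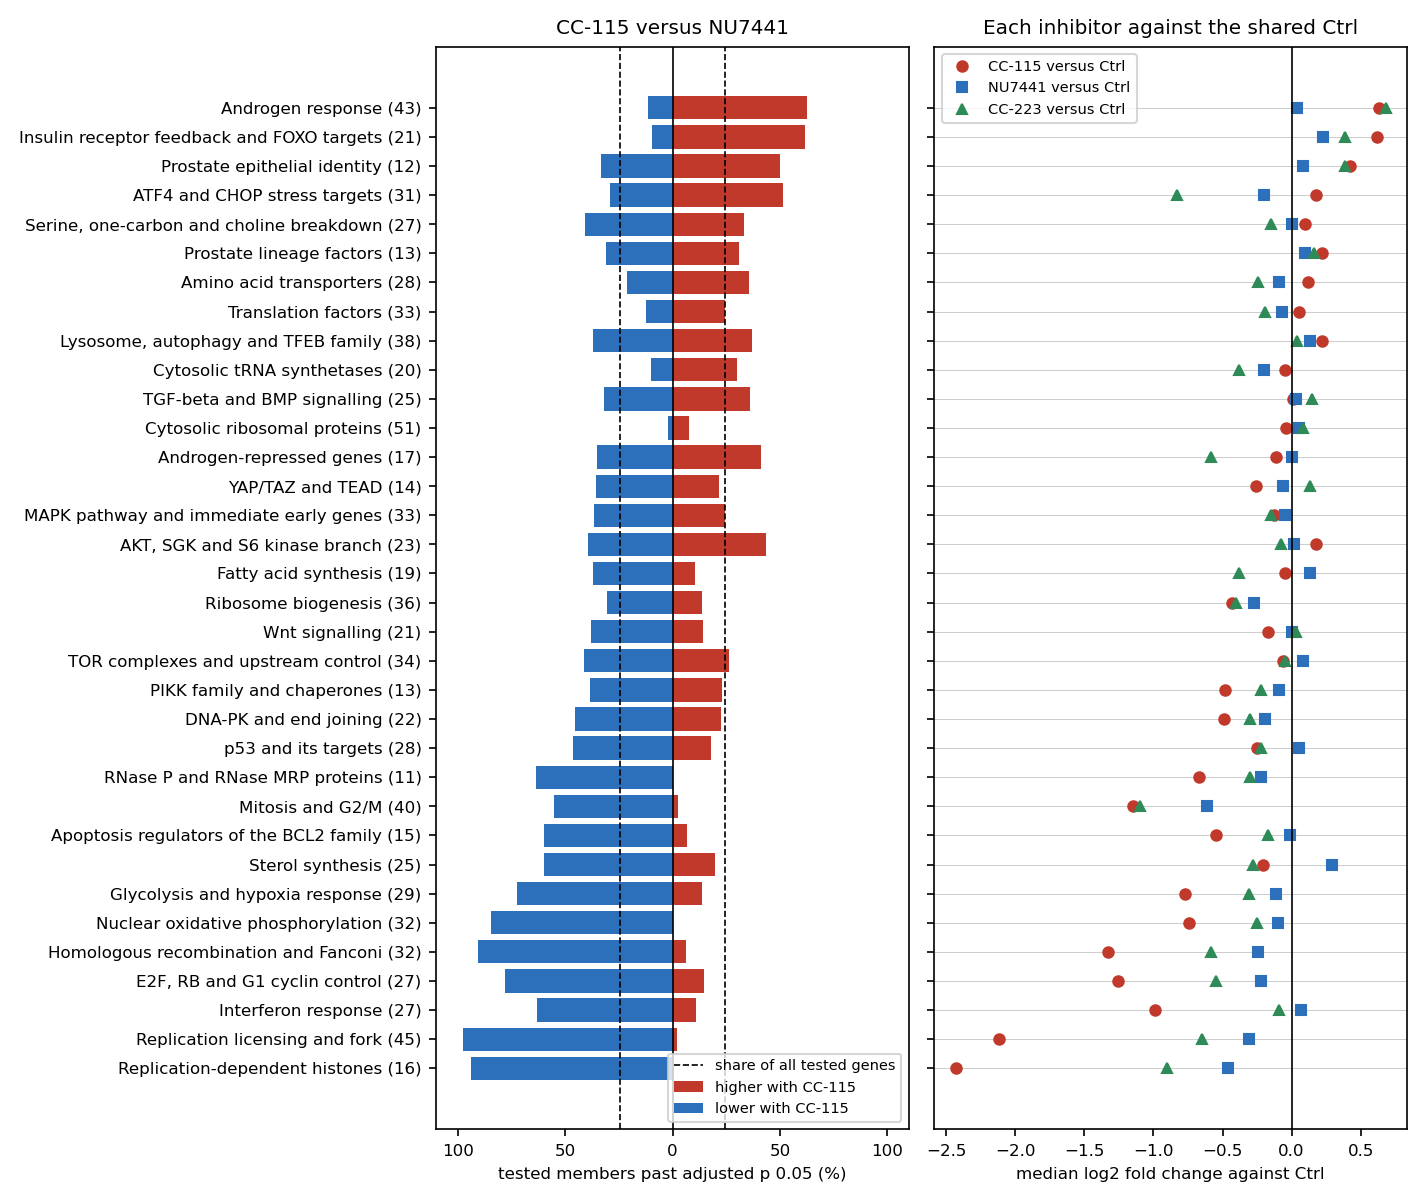
Left, for each gene list with at least 10 tested members (number in brackets), the percentage of tested members higher (right, red) or lower (left, blue) with CC-115 than with NU7441; dashed lines mark the 24.5% of all tested genes called in each direction. Right, the median log2 fold change of the same lists for CC-115, NU7441 and CC-223, each against the shared Ctrl libraries. Replication, histone and E2F lists lie far to the left with CC-115, while the NU7441 medians stay between −0.61 and 0.29.

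The transcripts of the targeted kinases themselves moved in opposite directions. PRKDC, which encodes the DNA-PK catalytic subunit, stood at 763, 752 and 757 CPM with CC-115 and at 1086, 878 and 1088 CPM with NU7441, against 1099, 1095 and 1119 CPM in Ctrl. All CC-115 libraries were below all NU7441 libraries, and the difference was −0.43 ± 0.10 (adjusted p = 0.0012). MTOR (chr1:11166592-11322564, minus strand, hg19), the catalytic subunit of both TOR complexes, was at 336, 358 and 376 CPM with CC-115 and at 200, 188 and 205 CPM with NU7441, a difference of 0.85 ± 0.10 (adjusted p = 4.79e-08). The groups did not overlap, and NU7441 lay at the Ctrl level of 193 to 200 CPM. These are transcript levels, and kinase activity was not measured in these libraries.

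The related kinase genes ATM and SMG1 were higher with CC-115. ATM, the kinase that signals double-strand breaks, was at 374 to 401 CPM against 144 to 166 CPM with NU7441 (difference 1.33 ± 0.11, adjusted p = 2.05e-10). SMG1, the kinase that phosphorylates UPF1 in nonsense-mediated decay, was at 420 to 444 CPM against 141 to 152 CPM (1.57 ± 0.11, adjusted p = 1.29e-11); it has near-identical pseudogene copies, so its counts are uncertain. Among 13 PIKK genes and their chaperones, 3 were higher and 5 lower, with a median of −0.29. Without Enza replicate 1 and CC-115+Enza replicate 1, whose spread enters the shared fit and which stood apart from their groups, 5 were higher. The lower ones included PRKDC and the chaperone genes TTI1 (−0.71), RPAP3 (−0.54) and RUVBL1 (−0.53).

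Of 22 DNA-PK and end-joining genes, 10 were lower and 5 higher (median −0.31). PARP1, the main poly(ADP-ribose) polymerase at DNA breaks, was at 213 to 218 CPM against 473 to 572 CPM with NU7441 (−1.30 ± 0.14, adjusted p = 1.1e-08), and PARP2 was lower by −0.99. The Ku subunit gene XRCC5 was at −0.68 and POLQ, the polymerase of microhomology-mediated joining, at −0.85. The end-processing polymerases POLM (1.59 ± 0.14) and POLL (1.08 ± 0.10) and the break-site scaffold TP53BP1 (1.22 ± 0.10) were higher. With NU7441, POLM lay at 0.26, POLL at 0.02 and TP53BP1 at 0.03 log2 units against Ctrl.

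Among 34 genes of the TOR complexes and their upstream control, 9 were higher and 14 lower (median −0.21), or 9 lower without NU7441 replicate 2. Several inhibitory regulators were among the lower ones. DDIT4 (REDD1), which restrains TOR complex 1 through the TSC complex, was at 4.76, 4.81 and 4.98 CPM with CC-115 and at 43, 52.2 and 36.3 CPM with NU7441, with Ctrl at 39.9 to 46.1 CPM. The groups were far from overlapping, and the difference was −3.18 ± 0.18 (adjusted p = 1.96e-13). Its relative DDIT4L was lower by −1.85, SESN3, a member of the sestrin family, by −1.34 and DEPTOR, a subunit that inhibits both complexes, by −1.14. PRR5L (1.98 ± 0.36) and RICTOR (0.67 ± 0.12), parts of TOR complex 2, and TSC2 (0.86 ± 0.13), a brake on TOR complex 1, were higher.

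In the AKT, SGK and S6 kinase branch 10 of 23 genes were higher and 9 lower. PIK3R3, a regulatory subunit of PI3-kinase, was at 20.8 to 21.8 CPM against 102 to 112 CPM with NU7441 (−2.32 ± 0.10, adjusted p = 1.62e-15), and EIF4EBP2, a translation repressor inactivated by TOR, was lower by −1.29. INPP4B, a lipid phosphatase, was higher by 1.72, PDPK1 by 0.91 and the S6 kinase gene RPS6KB1 by 0.89.

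Genes of insulin receptor feedback and FOXO targets were mostly higher: 13 of 21 higher and 2 lower, with a median of 0.52. IRS2, the insulin receptor adaptor, stood at 19.7, 23 and 19.5 CPM with CC-115 and at 2.55, 3.39 and 3.05 CPM with NU7441. The difference was 2.79 ± 0.15 (adjusted p = 1.29e-13), and CC-223 libraries lay between, at 6.5 to 7.43 CPM. FBXO32, the atrogin-1 ubiquitin ligase and a textbook FOXO target, was at 16.7 to 19.1 CPM against 1.91 to 2.64 CPM (3.01 ± 0.14, adjusted p = 8.25e-15). KLHL24 (1.95 ± 0.19) and IRS1 (1.06 ± 0.11) were also higher, while SESN1 (−0.90) and ERBB3 (−0.54) were lower. Against Ctrl, KLHL24 was at 1.20 log2 units with NU7441, and it stood at 54.6 CPM in NU7441 replicate 2 against 26.5 and 28.7 CPM in the other NU7441 libraries.

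DNA replication genes were lower almost throughout. Of 45 tested genes for origin licensing, the fork and its polymerases, 44 were lower with CC-115 than with NU7441 and 1, POLE, was higher (0.38 ± 0.12), with a median of −1.84. CLSPN (claspin, the ATR checkpoint adaptor; chr1:36185819-36235568, minus strand, hg19) was at 3.11, 3.30 and 3.31 CPM with CC-115 and at 69.5, 41 and 66.5 CPM with NU7441. The difference was −4.18 ± 0.15 (adjusted p = 7.01e-17), with NU7441 at −0.34 and CC-223 at −0.94 log2 units against Ctrl. MCM10 (−4.06 ± 0.17), which activates the replicative helicase, DTL (−3.63 ± 0.15), which targets the licensing factor CDT1 for destruction, and GINS2 (−3.11 ± 0.15), a subunit of the helicase complex, followed. PCNA, the sliding clamp, was at 32.9 to 37.3 CPM against 196 to 287 CPM (−2.85 ± 0.17, adjusted p = 5.32e-13). In each of these genes the lowest NU7441 library was replicate 2; without it the list again had 44 members lower and 1 higher, with a median of −1.94.

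At the G1/S switch 21 of 27 E2F, RB and G1 cyclin genes were lower and 4 higher (median −1.14). Without NU7441 replicate 2 the counts were 20 lower and 4 higher. E2F1, an activator of S-phase genes, was at 9.08 to 10.4 CPM against 80.2 to 112 CPM with NU7441 (−3.39 ± 0.18, adjusted p = 8.67e-14), and E2F2 was at 0.91, 1.07 and 1.35 CPM against 23.3, 13.7 and 22.8 CPM (−4.16 ± 0.20, adjusted p = 6.95e-15). The repressor E2F7 was lower by −2.78 and cyclin gene CCNE2 by −2.65. CCND1, the G1 cyclin that activates CDK4 and CDK6, was at 93 to 98.8 CPM against 228 to 233 CPM (−1.26 ± 0.11), while NU7441 and Ctrl libraries overlapped. The CDK inhibitor genes CDKN1B (0.60 ± 0.15) and CDKN2B (0.69 ± 0.20), the pocket protein gene RBL2 (0.34 ± 0.09) and E2F5 (0.36 ± 0.11) were the 4 that were higher, E2F5 not without NU7441 replicate 1 (adjusted p = 0.0587).

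Because the replication genes are textbook E2F targets, the letters TTTNGCGC were searched on both strands in RefSeq promoters (GRCh38.p14; 250 bases before to 50 after the start site), found by symbol for 12818 of the 22860 tested genes. They were found in 14 of 39 replication promoters (35.9%) and 5 of 21 G1/S promoters (23.8%), against 2.79% of all 12818 promoters. Among protein-coding genes the share was 4.87% for those lower by at least 1 log2 unit and 2.29% for those higher by at least 1 log2 unit. The cell cycle homology element letters TTTGAA were in 20 of 32 promoters of the mitosis list (62.5%), against 10.3% of all. By direction their shares were close: 11.8% for protein-coding genes lower by at least 1 log2 unit and 10.8% for those higher by at least 1 log2 unit. These are matches of letters, and binding was not measured. The promoters of the 4 replication genes with the largest differences among those with a TTTNGCGC match in the 120 bases before the start site, and of the 2 mitosis genes chosen likewise for TTTGAA, are shown so that the matches, in capitals, can be seen.
DTL: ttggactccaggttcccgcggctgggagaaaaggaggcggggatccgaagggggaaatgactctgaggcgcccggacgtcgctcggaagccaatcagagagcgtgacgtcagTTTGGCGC
MCM6: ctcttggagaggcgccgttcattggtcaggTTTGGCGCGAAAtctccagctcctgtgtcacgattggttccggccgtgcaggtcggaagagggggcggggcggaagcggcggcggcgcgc
POLE2: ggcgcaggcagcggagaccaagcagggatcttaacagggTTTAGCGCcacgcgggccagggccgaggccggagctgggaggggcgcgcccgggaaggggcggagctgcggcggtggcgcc
POLA2: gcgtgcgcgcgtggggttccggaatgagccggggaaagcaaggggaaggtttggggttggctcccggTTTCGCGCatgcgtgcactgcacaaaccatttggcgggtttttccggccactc
ANLN: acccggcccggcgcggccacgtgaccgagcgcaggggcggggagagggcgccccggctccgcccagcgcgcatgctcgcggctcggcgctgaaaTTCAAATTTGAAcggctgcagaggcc
BUB1B: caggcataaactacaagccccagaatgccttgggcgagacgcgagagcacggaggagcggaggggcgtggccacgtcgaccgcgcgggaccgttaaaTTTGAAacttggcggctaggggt

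Each sequence is the 120 bases that end at the base before the start site, 5′ to 3′ on the gene's strand: DTL is chr1:212035628-212035747 (plus), MCM6 chr2:135876444-135876563 (minus), POLE2 chr14:49688215-49688334 (minus), POLA2 chr11:65261842-65261961 (plus), ANLN chr7:36389742-36389861 (plus) and BUB1B chr15:40160949-40161068 (plus), all in GRCh38.p14. In MCM6 a pair of matches overlap, and in ANLN a pair lie side by side, one on each strand. DTL was at −3.63 log2 units, MCM6 at −2.47, and POLE2 and POLA2 both at −1.58. ANLN, a contractile ring scaffold, was at −1.17 and BUB1B, a spindle checkpoint kinase, at −0.77. These 2 and the genes PCNA, MCM6, POLE2, POLA2, CCNB1 and PLK1 were chosen after their values were seen, as were the snoRNA hosts and decay factors below and ITGA6, SGK1, MAF, FKBP5, INSIG1, DHCR7 and LSS.

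Genes of mitosis and G2/M differed less between the inhibitors than replication genes. Of 40 tested, 22 were lower, 1 (TOP2A, 0.46 ± 0.18) higher and 17 not called, with a median of −0.48, and NU7441 itself had a median of −0.61 against Ctrl on this list. MYBL2, a transcription factor of the late cell cycle, was at 16.4 to 18.9 CPM against 77.1 to 139 CPM (−2.72 ± 0.18), and the mitotic kinase gene CDK1 at 117 to 133 CPM against 324 to 492 CPM (−1.77 ± 0.20). CCNB1, cyclin B1, was at 155 to 170 CPM with CC-115, 167 to 265 CPM with NU7441 and 353 to 442 CPM in Ctrl. The range of NU7441 overlapped that of CC-115 through replicate 2. The difference was −0.48 ± 0.18 (adjusted p = 0.0281), and it was lost when any 1 library other than NU7441 replicate 2 was left out (adjusted p of 0.0782 to 0.157). PLK1 was not called (0.19 ± 0.17, adjusted p = 0.383), with 44.4 to 49.2 CPM against 24.3 to 50.6 CPM. The count of lower members was 14 without CC-115 replicate 2, 12 without NU7441 replicate 3 and 11 when only the 6 libraries compared were fitted. Without NU7441 replicate 2, 28 members were lower and none higher, the median was −0.66, TOP2A was not called (adjusted p = 0.177, and 0.0677 without CC-115 replicate 1) and PLK1 was at −0.03 (adjusted p = 0.874).

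Of 38 histone gene symbols listed, only 18 could be matched to a gene of the counts, and 16 were tested. Of these 16 histone genes, 15 were lower and 1 not called (median −1.95). These transcripts are made in S phase to package new DNA, are short and intronless and mostly end without a poly(A) tail, so a total RNA library can count them; their coding sequences are near copies, which makes single genes uncertain. H2BC11 was at 14.7 to 16.9 CPM against 131 to 268 CPM (−3.75 ± 0.21) and H1-5 was lower by −3.38. Homologous recombination and Fanconi genes had 29 of 32 lower and 2 higher (median −1.06): EXO1, the end-resecting nuclease, was at −2.41 ± 0.17. The 2 higher ones were RAD50 (1.02 ± 0.12), part of the break-sensing MRN complex, and MUS81 (0.81 ± 0.12), a structure-specific nuclease.

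**Figure D2:**
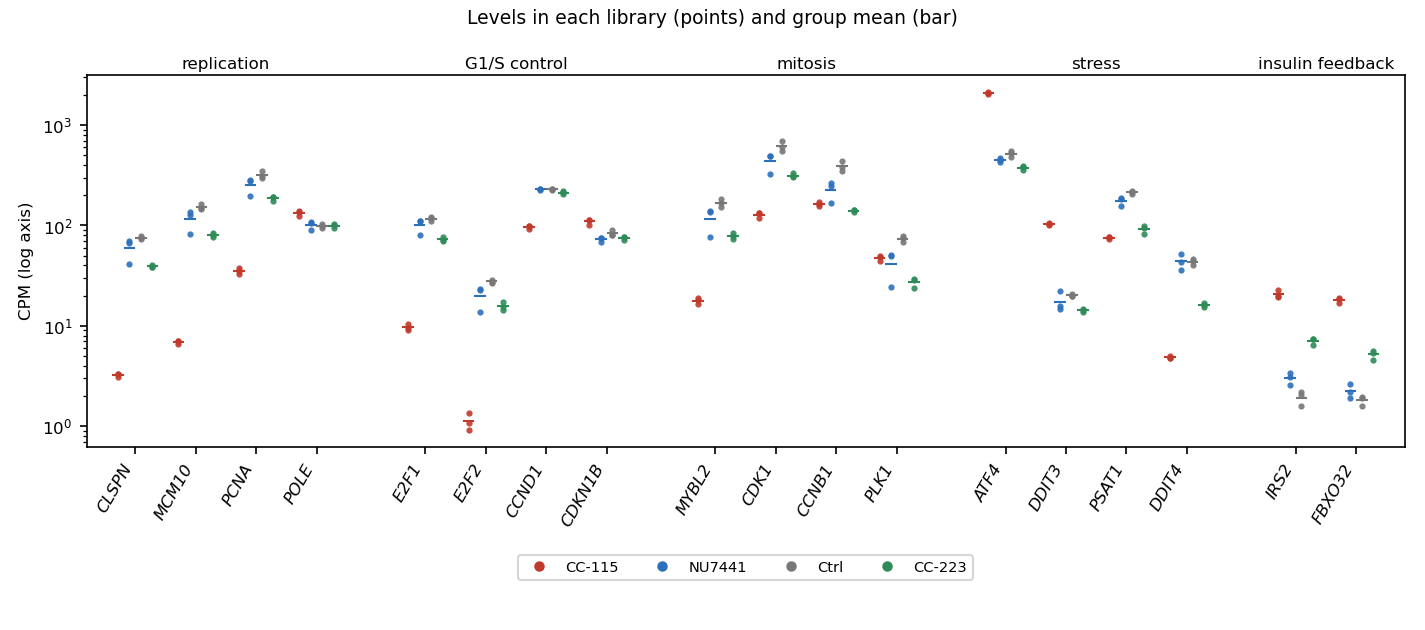
CPM (log axis) of 18 genes in each library of CC-115, NU7441, Ctrl and CC-223 (points, 3 libraries a group) with the group mean (bar). With CC-115, CLSPN, E2F1 and E2F2 sit far under NU7441 and Ctrl, ATF4, DDIT3, IRS2 and FBXO32 sit above them, and PLK1 overlaps between CC-115 and NU7441.

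Among 28 p53 and p53-target genes, 13 were lower and 5 higher (median −0.37). FAS, a death receptor gene, was at 1.05 to 1.47 CPM against 4.93 to 6.78 CPM (−2.16 ± 0.17) and the antiproliferative gene BTG2 at 5.35 to 6.02 CPM against 21.2 to 23.6 CPM (−1.99 ± 0.11). GDF15, a stress cytokine also controlled by other pathways, was at 82.8 to 95.1 CPM against 29 to 49.4 CPM (1.30 ± 0.18). Of 15 BCL2-family genes, 9 were lower, among them BCL2 (−1.47 ± 0.18) and the pro-apoptotic PMAIP1 (−1.05 ± 0.16) and BID (−0.69 ± 0.11), and the survival gene BCL2L2 was the 1 higher (0.83 ± 0.09).

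The ATF4 and CHOP stress list split: 16 of 31 members were higher and 9 lower (median 0.35). ATF4 (chr22:39915700-39918691, plus strand, hg19), the transcription factor of the integrated stress response, was at 2117, 2047 and 2130 CPM with CC-115 and at 467, 450 and 425 CPM with NU7441, under the Ctrl range of 485 to 553 CPM. The difference was 2.23 ± 0.18 (adjusted p = 9.88e-11). DDIT3 (CHOP), a stress transcription factor, was at 102 to 105 CPM against 14.6 to 22.1 CPM (2.57 ± 0.18), and PPP1R15A (GADD34), which reverses eIF2α phosphorylation, at 22.5 to 25.4 CPM against 3.48 to 4.29 CPM (2.66 ± 0.23). In contrast, the serine synthesis genes PSAT1 (−1.23 ± 0.12) and PHGDH (−0.93 ± 0.16), also known ATF4 targets, were lower, PSAT1 at 73.4 to 76.4 CPM against 158 to 186 CPM. With CC-223, ATF4 was at 359 to 390 CPM and the list had a median of −0.83 against Ctrl, where CC-115 had 0.18 and NU7441 −0.20.

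Of 28 amino acid transporters, 10 were higher and 6 lower. SLC36A4 (1.78 ± 0.12), an amino acid transporter, and SLC38A2 (0.94 ± 0.13), the adaptive SNAT2 carrier, were higher. SLC7A2, a cationic amino acid transporter, was at 9.80 to 11.8 CPM against 46.2 to 58.8 CPM (−2.29 ± 0.11), and SLC16A10, an aromatic amino acid carrier, was lower by −2.27. Cytosolic tRNA synthetase genes were called in 8 of 20 cases, 6 higher and 2 lower. The 2 lower calls, NARS1 and FARSB, were both lost without CC-115 replicate 2, CC-115 replicate 3 or NU7441 replicate 3, and 8 were lower when only the libraries compared were fitted. SARS1 was at 428 to 437 CPM against 176 to 199 CPM (1.19 ± 0.16), AARS1 was higher by 0.85 and CARS1 by 0.78. The CARE letters TGATGNAA bound by ATF4 dimers were in 6 of 16 synthetase promoters (37.5%) and 6 of 27 promoters of the ATF4 list (22.2%), against 1.86% of all promoters. By direction the shares were close: 2.18% for protein-coding genes higher by at least 1 log2 unit and 2.56% for those lower by at least 1 log2 unit. These too are matches of letters, and binding was not measured.

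In serine, one-carbon and choline metabolism, 9 of 27 genes were higher and 11 lower. DMGDH, the mitochondrial dimethylglycine dehydrogenase of choline breakdown, was at 20.4, 18.6 and 19 CPM with CC-115 against 1.06, 1.54 and 0.947 CPM with NU7441 (4.02 ± 0.17, adjusted p = 9.68e-16), with CC-223 at 0.501 to 1.04 CPM. BHMT, which methylates homocysteine with betaine in the step before, was at 0.822 to 0.981 CPM against 0.058 to 0.122 CPM, on 28 to 37 counts a library against 2 to 4. GLDC, the glycine cleavage decarboxylase, was at 0.441 to 0.564 CPM against 3.63 to 4.47 CPM (−2.98 ± 0.22), and SHMT1 (−1.89 ± 0.11) and MTHFD1 (−1.06 ± 0.14), cytosolic folate enzymes, were lower.

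Sterol synthesis genes were lower in 15 of 25 cases and higher in 5 (median −0.58), and the 5 became 2 without NU7441 replicate 1 and 3 without CC-115 replicate 3 or NU7441 replicate 3. NU7441 itself had a median of 0.29 against Ctrl. EBP, the sterol isomerase, was at 31.4 to 32.6 CPM against 128 to 143 CPM (−2.08 ± 0.15), and ACAT2, a thiolase that feeds the pathway, was lower by −2.15. In fatty acid synthesis 7 of 19 genes were lower and 2 higher, or 4 higher without the pair of outlying Enza libraries. ELOVL6 (−1.99 ± 0.12), an elongase, and SCD5 (−2.24 ± 0.18), a desaturase, were lower, while FASN, fatty acid synthase, was at 920 to 1161 CPM against 593 to 650 CPM (0.76 ± 0.19).

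Energy metabolism genes were largely lower. Of 29 glycolysis and hypoxia genes 21 were lower and 4 higher (median −0.60). The lactate exporter SLC16A3 was at 4.38 to 5.94 CPM against 25.8 to 28.7 CPM (−2.36 ± 0.16) and TPI1, triose phosphate isomerase, at 324 to 339 CPM against 865 to 980 CPM (−1.45 ± 0.16). VEGFA (0.54 ± 0.10) and the glucose transporter gene SLC2A3 (1.58 ± 0.25) were among the 4 higher. Nuclear genes of oxidative phosphorylation had 27 of 32 lower and none higher, with a median of −0.66 and a highest difference of −0.02 within the list. ATP5MC1, a subunit of the ATP synthase ring, was at 37 to 37.6 CPM against 122 to 133 CPM (−1.76 ± 0.11).

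Lysosome and autophagy genes went both ways, 14 of 38 higher and 14 lower, or 9 lower without CC-115 replicate 1 or NU7441 replicate 2. The autophagy genes GABARAPL1 (1.59 ± 0.17), WIPI1 (1.53 ± 0.10), ULK1 (1.03 ± 0.14), whose kinase TOR complex 1 inhibits, and ATG14 (0.93 ± 0.10) were higher, while the lysosomal hydrolase gene GLA (−1.61 ± 0.12), the proton pump subunit ATP6V1A (−0.95 ± 0.13) and LAMP2 (−0.83 ± 0.14) were lower. WIPI1 was at 43.1 to 44.3 CPM with CC-115 and at 14.1 to 16.6 CPM with NU7441, without overlap.

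Ribosomal protein genes, whose mRNAs are known for translational control by TOR, had 4 of 51 higher and 1 lower, with a median of −0.08. These counts depended on the fit: without Enza replicate 1 and CC-115+Enza replicate 1, 7 were higher and 17 lower, and with only the libraries compared 6 and 15. Calls over all genes rose in these fits too. They were 6885 higher and 6974 lower of 23108 in the first, and 6368 and 6482 of 20208 in the second. The 1 lower gene, RPL35, was lost with DESeq2 (adjusted p = 0.0544) and on leaving out any of the 6 libraries (0.0505 to 0.171), and RPS9, among the higher ones, on leaving out any of them but NU7441 replicate 2. The sign of that median turned to 0.01 without NU7441 replicate 2. RPS16 had the largest difference (0.97 ± 0.25) on 389 to 454 CPM against 153 to 255 CPM, and its Ctrl libraries spread from 147 to 366 CPM. Ribosome biogenesis genes were called in 16 of 36 cases, 11 lower and 5 higher, which became 20 and 9 without the pair of outlying Enza libraries and 7 lower without NU7441 replicate 1 or 3 or CC-115 replicate 2 or 3. TAF1D, a subunit of the RNA polymerase I factor SL1, was at 715 to 831 CPM against 205 to 225 CPM (1.85 ± 0.14), and LYAR, a nucleolar factor, was lower by −1.03. Of 33 translation factors 8 were higher and 4 lower, or 14 and 10 without the outlying pair, a fit in which more of all genes were called. EIF4A2, a helicase of the cap complex, was at 1708 to 1855 CPM against 581 to 710 CPM (1.51 ± 0.17), and the cap-binding EIF4E was lower (−0.93 ± 0.16). Among 11 RNase P and RNase MRP protein genes 7 were lower. RPP25 (chr15:75246757-75249805, minus strand, hg19) had 1, 4 and 1 counts with CC-115 against 90, 82 and 91 with NU7441 (−5.43 ± 0.33, adjusted p = 6.35e-13), so the CC-115 side rests on few counts.

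Many listed transcripts that carry small nucleolar RNAs (snoRNAs) in their introns were higher with CC-115. Host genes that belong to the other lists were not counted as hosts, so these counts do not speak for all snoRNA hosts. This list and that of decay factors were added after the values had been seen. Of 30 tested transcripts in the list, 16 were higher and 8 lower with CC-115 (median 0.87). The list also holds MIR17HG, a microRNA host, which was not called (−0.22). GAS5 was at 1367, 1267 and 1317 CPM with CC-115 and at 283, 303 and 285 CPM with NU7441 (2.18 ± 0.15, adjusted p = 3.76e-12). ZFAS1 was at 786 to 876 CPM against 67.5 to 80.6 CPM (3.51 ± 0.16, adjusted p = 6.63e-15), and EPB41L4A-AS1 at 313 to 330 CPM against 17.6 to 22.7 CPM (4.01 ± 0.18, adjusted p = 2.91e-15). SNHG32 (3.12), SNHG5 (2.78), SNHG7 (2.48), SNHG1 (2.25), SNHG8 (2.24), SNHG12 (2.02) and SNHG15 (1.70) were higher too. All CC-115 libraries lay above all NU7441 libraries for 16 of the 30 listed transcripts, against 31.7% of all tested genes. NU7441 and Ctrl libraries were close, GAS5 in Ctrl being at 279 to 319 CPM. Not every host rose: SNHG9 (−1.82 ± 0.17) and DANCR (−1.24 ± 0.18) were lower.

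Spliced host transcripts are textbook substrates of nonsense-mediated decay, and the factors of that pathway were measured beside them. Of 17 factors 11 were higher and 3 lower (median 0.49). DHX34, a helicase of the pathway, was at 58.8 to 65.7 CPM against 18 to 19.4 CPM (1.75 ± 0.12), NBAS was higher by 1.09, the endonuclease gene SMG6 by 0.97 and the helicase gene UPF1 by 0.70. EIF4A3, the anchor of the exon junction complex, was lower (−0.85 ± 0.14). Whether decay activity differed was not tested.

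**Figure D3:**
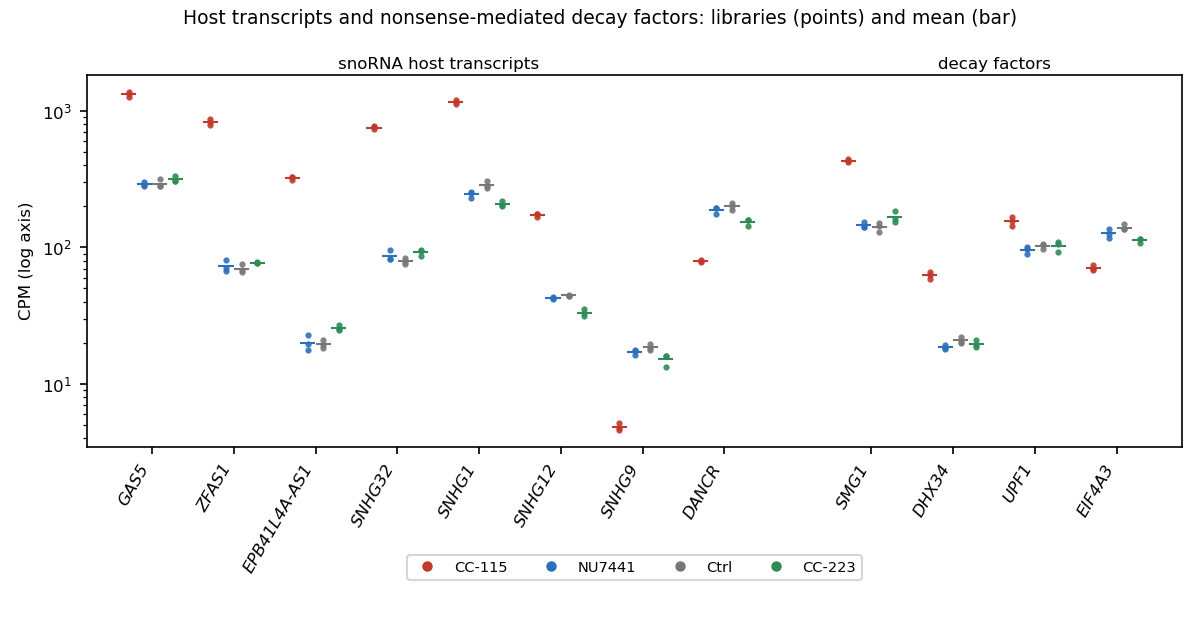
CPM (log axis) of 8 snoRNA host transcripts and 4 nonsense-mediated decay factors in each library of CC-115, NU7441, Ctrl and CC-223 (points) with the group mean (bar). For 6 of the 8 hosts shown the CC-115 libraries lie above every other library, with NU7441, Ctrl and CC-223 close together; SNHG9 and DANCR lie below.

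By transcript class, 27.3% of 14120 protein-coding genes were higher and 32.5% lower. Non-coding classes differed among themselves: 26.7% of 1422 lincRNAs were higher and 13.1% lower, and of 310 transcribed unprocessed pseudogenes 48.7% were higher and 9.68% lower, a class whose reads can be shared with parent genes. Processed pseudogenes, with 1889 tested, had 9.85% higher and 10.4% lower. Among 196 snoRNAs, which are short for this kind of library, 5.1% were higher and 16.3% lower. By genomic span, the 2811 shortest protein-coding genes had a median difference of −0.17, with 19.2% higher and 35.1% lower, and the 207 longest a median of 0.14, with 36.7% higher and 16.4% lower.

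Androgen response genes were mostly higher with CC-115. KLK3, which encodes prostate-specific antigen, was at 4382, 4293 and 4434 CPM against 2294, 2441 and 2180 CPM (0.92 ± 0.11, adjusted p = 2.04e-07), and its Ctrl libraries lay at 1847 to 2009 CPM. The neighbouring kallikrein gene KLK2 (chr19:51364824-51383823, plus strand, hg19) was at 3183 to 3309 CPM against 654 to 704 CPM (2.26 ± 0.13, adjusted p = 2.15e-13), while NU7441 and Ctrl overlapped. Of 43 androgen response genes 27 were higher and 5 lower, with a median of 0.52. The lower count was 8 without the outlying Enza libraries and 3 without CC-115 replicate 2 or 3 or NU7441 replicate 3. TSC22D3 (1.78 ± 0.14), a steroid-induced leucine zipper gene, CENPN (1.52 ± 0.14) and PTGER4 (1.46 ± 0.16), a prostaglandin receptor gene, followed KLK2. TMPRSS2, the androgen-driven serine protease gene, was at 714 to 747 CPM against 366 to 520 CPM (0.80 ± 0.11), with Ctrl at 236 to 250 CPM, so NU7441 was itself above Ctrl.

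Genes that androgen represses had 7 of 17 higher and 6 lower. The UGT2B enzymes, which inactivate androgens by glucuronidation and are near copies of each other, were higher: UGT2B11 was at 7.25, 6.28 and 8.14 CPM with CC-115 and at 1.22, 0.812 and 1.22 CPM with NU7441 (2.73 ± 0.17, adjusted p = 1.39e-12). Ctrl lay between, at 3.15 to 3.69 CPM. UGT2B28 was at 2.61 to 3.10 CPM with CC-115, 0.174 to 0.794 CPM with NU7441 and 2.28 to 2.77 CPM in Ctrl, and for UGT2B17 the CC-115 range of 3.29 to 4.30 CPM overlapped the Ctrl range of 3.59 to 4.51 CPM, with NU7441 at 1.13 to 1.96 CPM. For UGT2B28 and UGT2B17, then, it was NU7441 that lay apart from Ctrl. BCHE, butyrylcholinesterase, was lower by −1.80.

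Signalling lists went both ways. MAP2K6 (chr17:67410839-67539472, plus strand, hg19), a kinase that activates p38, was at 0.558, 0.376 and 0.477 CPM with CC-115 and at 17.9, 13.7 and 16.3 CPM with NU7441 (−5.08 ± 0.15, adjusted p = 1.27e-18). The other p38 activator gene MAP2K3 (−1.04 ± 0.15) and the p38 gene MAPK14 (−0.81 ± 0.08) were also lower, within a MAPK list of 8 higher and 12 lower of 33, or 7 lower without CC-115 replicate 1 or 3. In the TGF-beta and BMP list 9 of 25 were higher and 8 lower: the ligand gene TGFB2 was at 8.75 to 9.28 CPM against 0.638 to 1.62 CPM (3.03 ± 0.20), with Ctrl at 1.67 to 2.48 CPM, the ligand gene BMP7 was lower (−2.19 ± 0.16), and so was LTBP1 (−2.47 ± 0.13), which holds latent TGF-beta in the matrix. The Wnt list had 3 of 21 higher and 8 lower; the ligand gene WNT7B was at 1.12 to 1.5 CPM against 7.70 to 9.31 CPM (−2.72 ± 0.21) and WNT5A was higher (0.82 ± 0.13). Of 14 YAP/TAZ and TEAD genes 3 were higher and 5 lower. TEAD2, a YAP partner, was higher (1.43 ± 0.14) and AMOTL2, a YAP-binding scaffold, lower (−1.06 ± 0.13).

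Interferon response genes were lower in 17 of 27 cases and higher in 3 (median −1.14), with NU7441 at a median of 0.07 against Ctrl. OAS3, an antiviral oligoadenylate synthetase with sequence-related family members, was at 1.03, 0.967 and 1.09 CPM with CC-115 and at 21.4, 13.1 and 21.7 CPM with NU7441 (−4.18 ± 0.18, adjusted p = 1.36e-15). CMPK2, an interferon-induced nucleotide kinase, was at 0.564 to 0.940 CPM against 4.29 to 5.52 CPM (−2.84 ± 0.18). ISG20, an exonuclease, and STAT2, the interferon-receptor transcription factor, were higher, by 2.46 ± 0.15 and 0.65 ± 0.11, and RIGI by 0.42.

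Beyond the lists, the 12 largest differences in each direction among abundant protein-coding genes added a few of other roles. RELN, an extracellular matrix glycoprotein, was at 33.4 to 35.6 CPM against 3.87 to 4.96 CPM (3.00 ± 0.14), and POPDC2, a cyclic AMP-binding membrane protein, at 7.28 to 7.48 CPM against 0.870 to 0.947 CPM (3.04 ± 0.18). DOCK8, a guanine exchange factor, was at 12.6 to 14 CPM against 1.13 to 2.15 CPM (2.92 ± 0.18), and TCP11L2, ZNF185, WASHC1 and NPIPB6 were higher by 2.75 to 2.96; WASHC1 and NPIPB6 have near-identical copies. On the lower side were BRDT, a testis bromodomain gene (−4.97 ± 0.35; 3 to 5 counts with CC-115 against 91 to 129), APLN, the apelin ligand, at 0.663 to 0.910 CPM against 19 to 27.3 CPM (−4.93 ± 0.18), FAM111B, an S-phase protease gene, at 6.58 to 7.93 CPM against 126 to 173 CPM (−4.44 ± 0.18), and TNS1, a focal adhesion gene (−3.85 ± 0.28).

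The same pair of inhibitors was compared in cells that also received enzalutamide, with 6 other libraries. One of these, CC-115+Enza replicate 1, stood apart from the others of its group by a chi-square of 112 and 114 per degree of freedom, against 10.9 between the other 2. With Enza, 6565 genes (28.7%) were higher and 6663 (29.1%) lower with CC-115, or 57.9% called. Of the 11195 genes called without Enza, 9218 (82.3%) were called in the same direction with Enza, which is 69.7% of those called with Enza, and 102 were called in the opposite direction. Replication genes again had 44 lower and 1 higher of 45 (median −2.09), and CLSPN was at −4.32, SNHG32 at 2.90 and MAP2K6 at −5.98.

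A test of the difference between the 2 contrasts called 662 genes (2.9% of 22860), 277 (1.21%) with a higher and 385 (1.68%) with a lower value in the presence of Enza. Without CC-115+Enza replicate 1 and the Enza library labelled replicate 1, which also stood apart, it called 1592, and leaving out single libraries gave 397 to 1092. Of 43 androgen response genes, 18 had a called difference, and 29 without those libraries. With Enza the list had 17 members higher and 18 lower and its median was −0.10, against 0.52 without. FKBP5, a steroid receptor chaperone, was at −1.36 beside −0.16 (adjusted p of the change = 0.000446). SGK1, a kinase gene under steroid control, and MAF, a transcription factor gene, turned from higher (0.84 and 1.15) to lower (−2.79 and −1.68). With Enza, SGK1 was at 0.516, 0.873 and 1.15 CPM with CC-115 and at 5.8, 6.04 and 5.92 CPM with NU7441, without overlap (adjusted p of the change = 1.9e-10). MAF with Enza was at 0.446 to 0.519 CPM with CC-115 and 1.18 to 1.75 CPM with NU7441. KLK2 and KLK3, in contrast, were higher with Enza too, by 2.64 and 1.13, and the change was not called for either (adjusted p = 0.276 and 0.52).

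Sterol synthesis genes also changed: 13 of 25 had a called difference, 21 without the outlying libraries. With Enza 11 were higher and 6 lower, and the median moved from −0.58 to 0.09. INSIG1, the sterol sensor that retains SCAP, went from −0.70 to 0.63, DHCR7 from −0.63 to 0.46 and LSS from −0.54 (−0.40 and not called without NU7441 replicate 2, adjusted p = 0.0615) to 0.70. FASN was at 1.84 with Enza beside 0.76 without. MTOR was at 0.29 with Enza beside 0.85, DDIT4 at −2.07 beside −3.18, UGT2B11 at 0.56 beside 2.73 and WNT5A at −1.56 beside 0.82. Each of these changes was called (adjusted p of 0.0181 for MTOR and 0.026 for FASN), but those of MTOR and FASN were each lost on leaving out any of 7 of the 12 libraries in turn. Ribosomal protein genes had 32 of 51 lower with Enza (median −0.46), but the change between the contrasts was called for 0 of the 51 by edgeR (lowest adjusted p = 0.105, with 4 at an unadjusted p under 0.05) and for 0 by DESeq2.

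**Figure D4:**
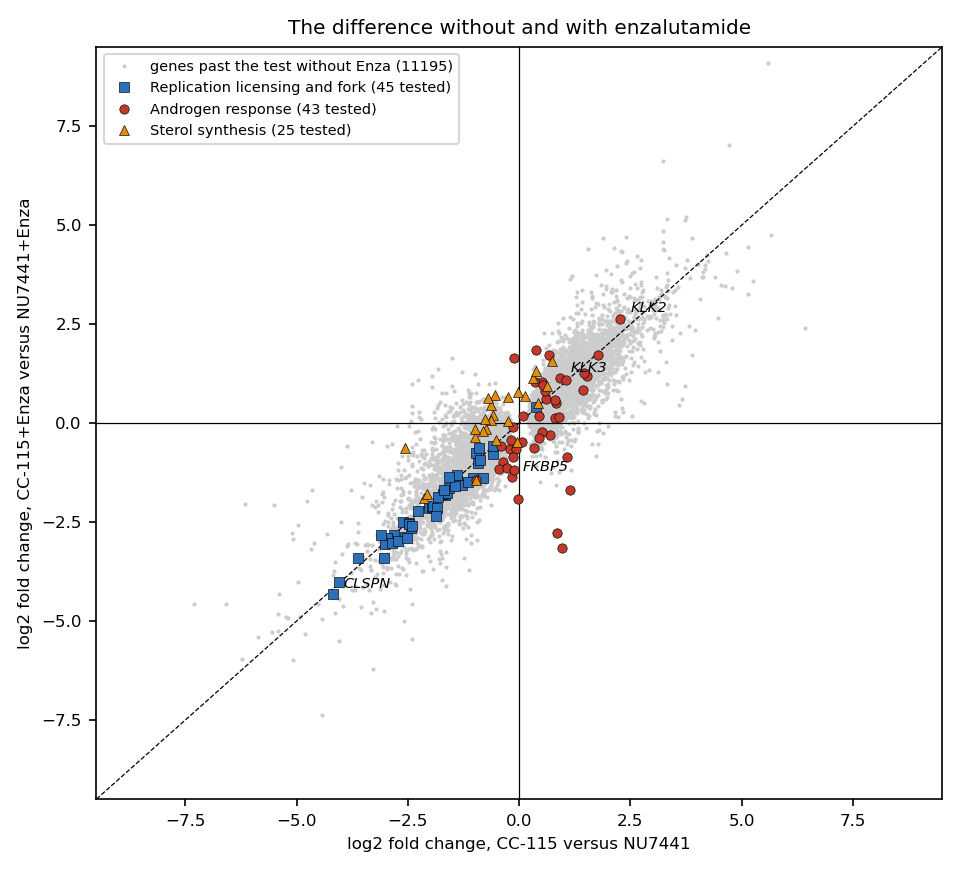
Log2 fold change of CC-115 over NU7441 without Enza (horizontal) and with Enza (vertical), for the 11195 genes called without Enza (grey) and for all tested members of 3 lists; the dashed line marks equal values. Replication genes lie along the line, many androgen response genes such as FKBP5 fall below it, KLK2 and KLK3 stay near it, and most sterol genes lie above it.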

How the data were processed

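Total RNA libraries (TruSeq Stranded Total RNA Gold, per the labels' protocols) were aligned and counted per Ensembl gene on hg19 by the authors; STAR 2.5.2a, featureCounts 1.5.0-p3 and DESeq2 1.14.1 are named in the submitters' processing notes. The deposited values are raw read counts. Columns were matched to samples by the description and title of each sample. Counts of all 24 C4-2 libraries in 8 groups were fitted with edgeR 4.0.16 (filterByExpr, TMM scaling, robust quasi-likelihood test, R 4.3.3), and contrasts were adjusted by Benjamini-Hochberg over 22860 genes at 0.05. SE is the size of the log2 fold change divided by the root of F. On simulated counts for 22175 genes, 93% of those changed by 1 log2 unit and 98% of those changed by 2 were called in the right direction. Only 100 genes were changed at each size, none at a low mean count, and no library was made to stand apart. The simulation therefore does not cover genes at few counts or a comparison in which 49% of genes are called. Alternatives were DESeq2 1.42.0, other scaling, filters and sample sets, removal of small and mitochondrial RNA, a replicate block and leaving out each library. The members and lists were chosen with earlier results of these data known. Named genes were PRKDC, MTOR and KLK3, a further gene that is not reported here, the 12 largest differences in each direction among called protein-coding genes with an average log2 CPM of at least 1 and no overlap between groups, and up to 4 called members of each list in each direction, of which the text gives a selection. Promoters came from RefSeq (GRCh38.p14).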

Additional observations from a re-analysis of the deposited data

Results flagged for a closer look

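The difference between CC-115 and NU7441 changed with enzalutamide for 662 genes, by edgeR's test of the change itself. Among genes of androgen response or steroid control, the change in the log2 difference was −1.20 for FKBP5, −3.62 for SGK1, −2.83 for MAF and −2.17 for UGT2B11. Among lipid genes it was 1.33 for INSIG1, 1.10 for DHCR7, 1.24 for LSS and 1.08 for FASN. MTOR changed by −0.57, its inhibitory regulator DDIT4 by 1.10 and the ligand gene WNT5A by −2.38. CC-115+Enza replicate 1, which stood apart from its group, enters all of these values, and its part in them was tested only by leaving it out.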

How the results depend on the processing

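Counts of genes higher or lower stayed within 1.5 times the reported values under each alternative, both without Enza (4784 to 5632 higher and 4538 to 5129 lower when single libraries were left out) and with it (6066 to 7311 and 5547 to 6395), and no called gene changed sign in the comparison without Enza. The largest counts in that comparison were 6885 higher and 6974 lower of 23108, without Enza replicate 1 and CC-115+Enza replicate 1. With only the 6 libraries compared they were 6368 and 6482 of 20208. The count of changes with Enza was less stable: 1592 without Enza replicate 1 and CC-115+Enza replicate 1, and 397 to 1092 without single libraries, with 432 without CC-115 replicate 1, 397 without its replicate 3, 440 without NU7441 replicate 3, 399 and 437 without NU7441+Enza replicates 1 and 3, and 1092 without CC-115+Enza replicate 2. Without single libraries FKBP5, not called, ranged from −0.32 (called, without NU7441 replicate 2) to 0.01, and PLK1, not called, from −0.03 (without NU7441 replicate 2) to 0.38. The cause was not tested. Deviations from the group mean were hardly shared by same-numbered CC-115 and NU7441 libraries (correlations of 0.004, 0.023 and −0.016). With Enza the correlations were −0.307, −0.274 and −0.061 for same-numbered libraries and −0.195 to 0.278 for the others. Such values cannot show whether libraries were processed in pairs. With a replicate block, 5464 genes were higher and 5427 lower, 6368 and 6550 with Enza, and 539 changed. Genes at a few counts, such as RPP25, are limited by depth.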
